A study of Mus musculus with 15 samples.

Results

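The subject of this section is a set of 461 promoter regions that carried a Myc peak in each list made after addition of 4-hydroxytamoxifen (OHT) and none in the list made before it. Peaks of the 6 Myc ChIP-seq lists (0, 10, 20 and 30 min, 2 h and 4 h) were merged into 29372 regions wherever they overlapped by at least 1 bp. Of these, 11582 overlapped 1000 bp either side of a transcription start site (TSS) of the GENCODE vM1 annotation of mouse build mm9. A region was taken when it had no 0 min peak and a peak in all 5 later lists, which held for 461 promoter regions, or 3.98% of the promoter regions. They are called gained promoters here, and the Myc peak calls themselves chose them, so the members were selected on these Myc values, which are given as a description.

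The cells were 3T9 fibroblasts from mouse embryos (E13.5) of genotype c-mycflox/flox, infected in culture with the pBabe bleomycin MycER construct. MycER is a fusion of Myc to a hormone-binding domain of the estrogen receptor that answers to OHT. OHT was given at 400 nM for 10, 20 or 30 min, 2 h or 4 h, and the 0 min cells, which also carried MycER, had none. Myc was precipitated with antibody N262 and RNA polymerase II (RNAPII) with antibody N20 at the same 6 times. Miz1 (antibody 10E2) was mapped in the fibroblasts without OHT and in splenic B cells of wild-type C57BL/6 mice aged 6 to 8 weeks. The labels do not say whether N262 signal in these cells is endogenous Myc or the fusion. All fibroblast libraries came from 1 line, and each group is 1 library, so differences between times were not tested and no p-value could be given.

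Myc binds DNA as a dimer with Max, and the dimer prefers the E-box CACGTG and some variants of it. It is found at most active, CpG-rich promoters, where RNAPII is already engaged, and its best known targets in fibroblasts are genes of growth, such as those for ribosome assembly. RNAPII collects near the TSS before it moves into the gene body, so a promoter peak and body coverage describe different steps. Miz1 is a zinc finger protein that binds DNA on its own and can also bring Myc to promoters.

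The E-box CACGTG lay near the Myc summit at 40 of the 461 gained promoters (8.68%), and the stretches printed first were picked for holding it. Many strong gained peaks had none, among them Man2b2 and Kremen1, which came next after P2ry2 by 4 h Myc fold. The summit is the point of the 4 h peak with the most tags, and the 200 bp around it were searched on both strands for 7 motifs. Of the gained promoters holding CACGTG, 5 with high 4 h Myc fold enrichment are printed below from the mm9 forward strand, 5′ to 3′, with the E-box in capitals.
P2ry2: ggcgcagggtccCACGTGcctggaagcgcc
Lingo1: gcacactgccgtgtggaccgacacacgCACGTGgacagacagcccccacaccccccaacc
Gm12992: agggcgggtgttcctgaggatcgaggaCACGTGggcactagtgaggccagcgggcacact
Gmip: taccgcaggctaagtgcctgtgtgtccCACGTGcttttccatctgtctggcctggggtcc
Chrm4: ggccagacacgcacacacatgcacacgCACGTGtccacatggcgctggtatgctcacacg
The P2ry2 stretch is chr7:108160513-108160542, just upstream of the TSS, and the centre of its E-box lies 17 bp from the summit. Lingo1 (chr9:56483897-56483956), Gmip (chr8:72333173-72333232) and Chrm4 (chr2:91763952-91764011) lie in introns of the named gene. Gm12992 (chr4:131472486-131472545) lies in an intron of that noncoding transcript. Lingo1 and Gm12992 each held 2 copies of CACGTG in the 200 bp, and the other members of this group held 1.

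Other gained promoters had the AP-1 motif TGANTCA near the summit, the site bound by Fos and Jun dimers. The 4 with the highest 4 h Myc fold are shown with the motif in capitals.
Kremen1: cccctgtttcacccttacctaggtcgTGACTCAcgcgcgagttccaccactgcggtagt
Epb4.1l3: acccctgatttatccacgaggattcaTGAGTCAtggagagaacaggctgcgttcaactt
Kifc3: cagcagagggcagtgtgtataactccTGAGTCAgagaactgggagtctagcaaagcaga
Hsd3b7: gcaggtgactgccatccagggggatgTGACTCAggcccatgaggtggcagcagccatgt
These stretches are chr11:5161949-5162007 (intergenic, upstream of Kremen1), chr17:69504539-69504597 (intergenic), chr8:97637871-97637929 (intron of Kifc3) and chr7:134944982-134945040 (coding exon of Hsd3b7). The last promoter shown is that of Nrtn (chr17:56897041-56897240, intergenic, with the summit 188 bp upstream of the TSS), picked because RNAPII peaks appeared in its 2 h and 4 h lists but not before OHT. Its 200 bp held none of the E-box forms searched, and the GC box GGGCGG, here on the reverse strand, is in capitals.
Nrtn: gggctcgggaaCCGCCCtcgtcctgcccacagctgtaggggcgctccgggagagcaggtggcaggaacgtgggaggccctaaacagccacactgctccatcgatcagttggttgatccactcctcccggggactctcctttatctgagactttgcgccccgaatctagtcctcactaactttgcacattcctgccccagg

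The gained Myc peaks were weak ones within their lists. MACS gives each peak a fold enrichment over input, and this value can be ranked within 1 list but not read as a change between lists. The median fold at the 461 gained promoters was 8.26 at 10 min, 9.0 at 20 min, 7.90 at 30 min, 10.2 at 2 h and 8.76 at 4 h. The medians over all peaks of those lists were 12.4, 12.8, 11.7, 13.1 and 12.4. Of the 461, 38, 62, 70, 104 and 59 were above the median of their list at those times. The 9481 promoters with a Myc peak at all 6 times, called constant Myc promoters here, had medians of 18.5, 21.1, 17.4, 23.9 and 18.3 at the 5 later times, and 12.4 at 0 min. The 4 h fold at gained promoters ran from 3.33 to 31.5, with quartiles of 7.11 and 10.7.

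**Figure D1:**
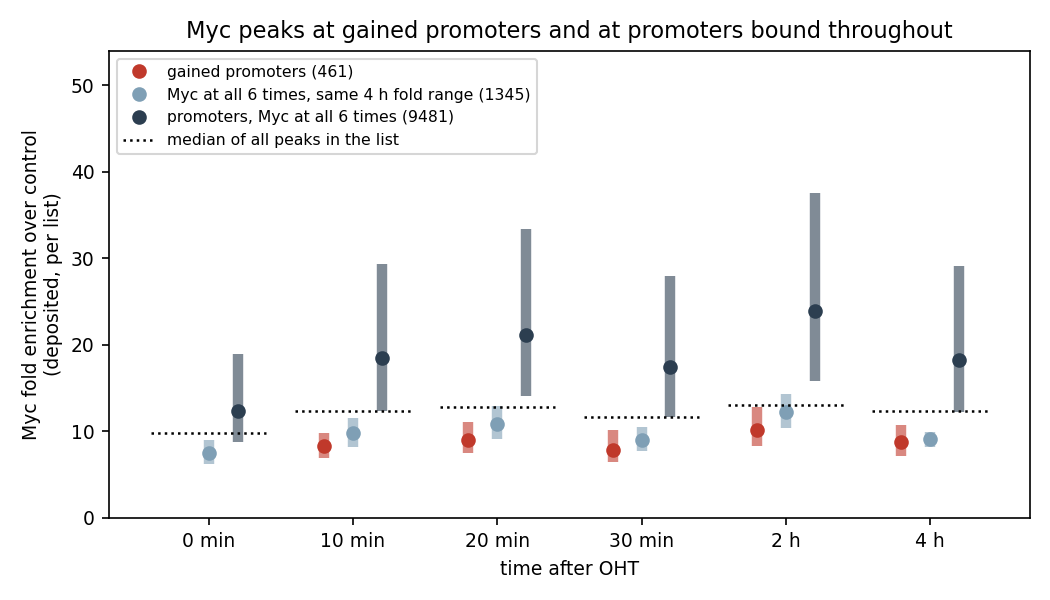
Myc fold enrichment over input (vertical axis) in each Myc list (horizontal axis, time after OHT) at gained promoters, at constant Myc promoters and at those of them with a 4 h fold between the quartiles of gained promoters; points mark the median, bars the quartiles and dotted lines the median of all peaks in the list. Gained promoters had medians between 7.90 and 10.2, below the list medians of 11.7 to 13.1.

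A missing 0 min peak means that the region stayed under the authors' cutoff, a significance score (−10 log10 of the p-value) of 80, and does not mean that Myc was absent. The lists hold no value for a region without a peak. The 0 min Myc library was the deepest of the 6, with 33431447 tags against 28132063 to 33329758, yet its list was the shortest, with 19995 peaks against 22996 to 27388. Just inside the rule, the member with the weakest later peak, Gm12347, had scores of 113.19, 119.32, 80.81, 163.74 and 80.2 from 10 min to 4 h. Just outside it, the promoter shared by 4930555J06Rik and Arl4a had a score of 80 at 0 min and of 143.38, 128.71, 138.53, 283.76 and 101.23 in the later lists. A band of 240 promoters with Myc at all 6 times and a 0 min score under 100 had a median 4 h fold of 8.59, close to the 8.76 of gained promoters. Among promoters missing from 1 list alone, 461 lacked the 0 min list, 44 the 10 min list, 7 the 20 min list, 85 the 30 min list, 3 the 2 h list and 75 the 4 h list. By contrast 14 promoters had a Myc peak at 0 min alone.

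The 12 protein-coding genes with the highest 4 h Myc fold and a summit within 1000 bp of their own TSS included receptors, ligands and enzymes. At P2ry2, a receptor for extracellular nucleotides, the Myc fold was 18.85, 22.9, 26.59, 30.71 and 31.46 in the lists from 10 min to 4 h. Kremen1, a receptor for Dickkopf proteins that dampens Wnt signalling, had 25.45, 23.82, 26.47, 28.9 and 26.02. Both genes were above the median of every later list. Lingo1, a subunit of the Nogo receptor complex, had 11.87, 13.33, 25.67, 23.19 and 24.55, and so passed its list's median from 20 min on. Nrtn, which encodes the GDNF-family ligand neurturin, had 13.43, 16.66, 20.89, 21.9 and 19.28. Hsd3b7, an enzyme of bile acid synthesis, had 18.51, 19.08, 18.68, 30.27 and 18.59. Rassf5, a Ras effector, had 15.78, 25.55, 17.09, 21.28 and 17.24. Il13ra1, a receptor chain for interleukin-13, had 11.26, 16.28, 15.13, 17.09 and 17.16. The other 5 of the 12, Kifc3, Mtss1l, Heca, Tmem189 and Gmip, had 4 h folds between 16.75 and 19.83.

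Gained promoters were also counted in lists of growth genes known as Myc targets. None of 30 ribosome biogenesis genes had a gained promoter, and all 30 had Myc at all 6 times and RNAPII at 0 min. None of 138 cytosolic ribosomal protein symbols was gained either, and 3 of 77 mitochondrial ones were (Mrpl55, Mrps10 and Mrps22). For comparison, 454 of 22208 protein-coding symbols, or 2.04%, had a gained promoter and 44.1% had Myc at all 6 times. Lists of this size hold few gained genes at that share, so nothing is read from these counts.

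Among families taken from the start of the gene symbol, membrane traffic and extracellular matrix had the higher shares, which were not tested. Vesicle traffic had 13 of 216 symbols (6.02%): the exocyst subunits Exoc1, Exoc4 and Exoc6, the Golgi tether subunit Cog7, the sorting nexins Snx9 and Snx10, the small GTPases Rab12, Arl5a and Arl5b, and Stx8, Stxbp5, Vps39 and Vps54. Matrix genes had 6 of 118 (5.08%), all collagens: Col4a1 and Col4a2 share 1 region, Col4a5 and Col4a6 share another, and Col6a1 and Col6a3 have 1 each. These 6 genes are therefore 4 regions, and the type IV chains are the network-forming collagens of basement membranes. Kinases and phosphatases had 8 of 229 (3.49%), zinc finger proteins 14 of 432 (3.24%), adhesion molecules 4 of 137 (2.92%) and the ubiquitin system 8 of 354 (2.26%). Growth factors and other ligands had 3 of 177 (Il17d, Nrtn and Tnfsf8), solute carriers 5 of 353, ion channels 2 of 172 and cytokine receptors 1 of 67. Receptors coupled to G proteins were matched at 6 of 206 and developmental transcription factors at 6 of 190. Matching by symbol also caught other kinds of protein: Adrbk1, Gprasp1 and Htra1 among the receptors, Gatad1 and Tbxas1 among the factors, the phospholipase Plcb3 among kinases and phosphatases, the scaffold Slc9a3r2 among carriers, and the channel-interacting Kcnip3 among ion channels.

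Some gained promoters were shared by neighbouring genes, and some were alternative promoters of a gene that Myc already marked. Of the 461 regions, 404 held TSSs of 1 gene, 53 of 2 genes and 4 of 3 genes, and 425 held a protein-coding TSS. They touched 456 protein-coding genes. For 93 of these, another promoter of the same gene already had Myc at 0 min, and in 66 of the 93 the gained region was not at the gene's first TSS. For the other 363 genes no other promoter had Myc at 0 min, and the gained region was at the first TSS in 324. The nearest 0 min Myc peak lay at a median of 23528 bp (quartiles 6568 and 58104), and within 5000 bp for 90 regions (19.5%).

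The RNAPII lists were set against marker genes of the labelled cell type. At 0 min, 18 of 24 fibroblast marker genes carried RNAPII at a promoter, against 2 of 16 B cell, 2 of 15 T cell or myeloid, 3 of 12 neuronal and 0 of 13 hepatocyte markers. Of the fibroblast markers, 17 had Myc at all 6 times and 1, Col6a1, had a gained promoter.

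RNAPII was already at many gained promoters before OHT, less often than at promoters with constant Myc. An RNAPII peak of the narrow lists overlapped 271 of 461 gained promoters at 0 min (58.8%, 95% Wilson interval 54.2 to 63.2), 283 at 10 min (61.4%), 318 at 20 min (69.0%), 264 at 30 min (57.3%), 261 at 2 h (56.6%) and 272 at 4 h (59.0%, 54.5 to 63.4). Intervals here cover counting error only. The 0 min and 4 h shares differed by less than their intervals. In the broad RNAPII lists the share was lower, 46.2% (41.7 to 50.8) at 0 min and 44.0% at 4 h. The higher 20 min share came from the deepest RNAPII library, with 36396286 tags against 15276996 to 19999678 in the others, and the part of depth in it was not tested. Promoters with Myc at all 6 times had RNAPII in 92.1% at 0 min and 91.3% at 4 h. The 1345 of them whose 4 h Myc fold lay between the quartiles of gained promoters had it in 84.0% and 81.3%. This group is matched on the 4 h fold alone and still had stronger Myc peaks, with a median 4 h score of 260 against 167, a median region length of 2089 bp against 1676 bp, and median folds of 9.77, 10.9, 9.0 and 12.2 from 10 min to 2 h. Gained Myc regions away from promoters, 1613 in number, had it in 9.11% at 0 min.

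**Figure D2:**
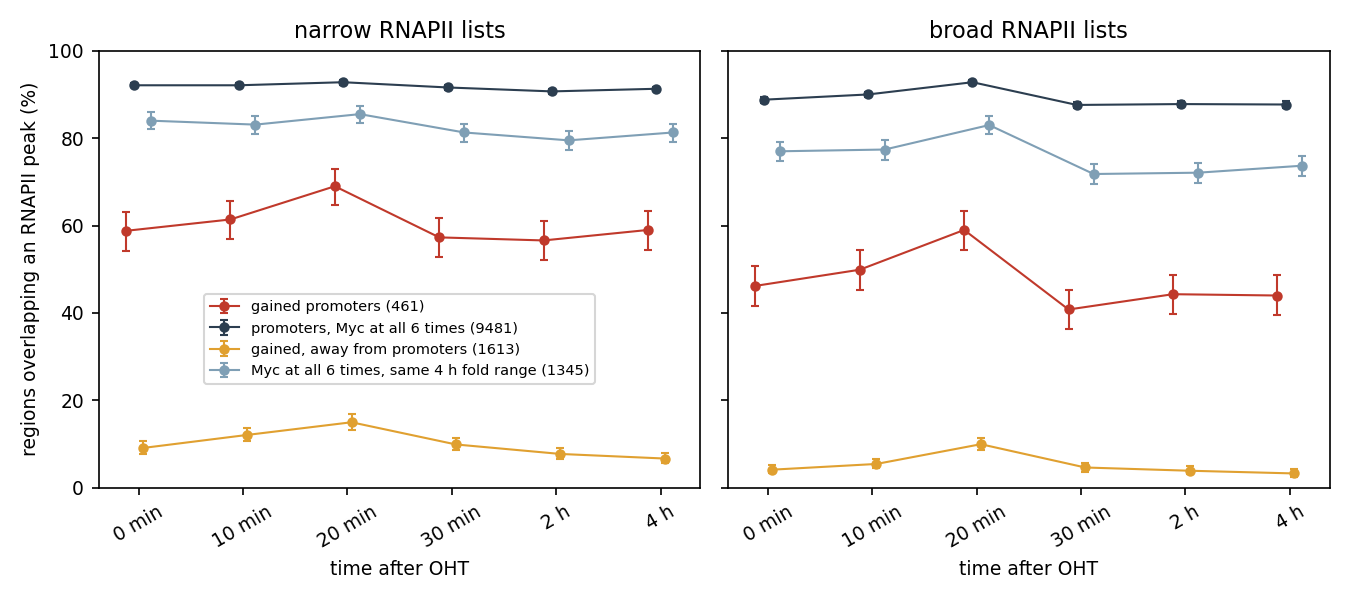
Share of regions overlapping an RNAPII peak (percent, vertical axis) at each time after OHT (horizontal axis), from narrow (left) and broad (right) RNAPII lists, with 95% Wilson intervals, for gained promoters, promoters with Myc at all 6 times, those of them with a like 4 h Myc fold, and gained regions away from promoters. Gained promoters stay between 56.6% and 69.0% in the narrow lists, under the 2 other promoter groups at every time.

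The lower RNAPII share was nearer to that of promoters at the edge of the 0 min cutoff than to those of the other promoter groups. Among the 240 promoters with a 0 min Myc score under 100, 65.4% (59.2 to 71.1) had RNAPII at 0 min and 63.3% at 4 h. Those intervals overlap those of gained promoters, but the 65.4% lies above the 0 min interval of gained promoters (54.2 to 63.2). Where a peak was present, its fold enrichment at gained promoters had a median of 16.7 at 0 min, 12.7 at 10 min, 13.3 at 20 min, 14.6 at 30 min, 12.4 at 2 h and 15.2 at 4 h. Each of these was above the median of its own list (12.5, 9.96, 7.61, 11.8, 10.4 and 12.2) and below the 23.6 to 30.4 of promoters with constant Myc.

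Followed over time, gained promoters were mostly either occupied by RNAPII throughout or without it throughout. A narrow RNAPII peak was present at all 6 times at 210 regions (45.6%) and at none at 125 (27.1%). At promoters with constant Myc these shares were 86.2% and 4.63%. Regions with RNAPII at 2 h and 4 h and not at 0 min numbered 17 (3.69%), and regions with RNAPII at 0 min and at neither 2 h nor 4 h numbered 21 (4.56%). In the broad lists such regions numbered 8 (1.74%) and 21 (4.56%). Without the 20 min list, 210 regions (45.6%) had RNAPII at the remaining 5 times and 138 (29.9%) at none.

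The same comparison by gene, with an RNAPII peak within 1000 bp of any TSS of the gene, gave a like picture. Of the 456 genes, RNAPII was at a promoter of 72.8% at 0 min and of 73.0% at 4 h. For 16 genes RNAPII was present in the lists of 2 h and 4 h but not of 0 min (3.51%, 2.17 to 5.62), against 0.573% of 22350 protein-coding genes. The reverse, a peak at 0 min and at neither 2 h nor 4 h, was found for 24 genes (5.26%, 3.56 to 7.71), against 1.15% of all. Both shares had intervals above the share over all genes, and their own intervals overlap. All genes are an unlike base, since 47.9% of them had RNAPII at a promoter at 0 min. RNAPII peaks at gained promoters were also weaker than at constant Myc promoters. The part of peak strength in these shares was not tested. In the broad lists the 2 shares were 2.19% and 5.04%, against 0.711% and 1.08% of all genes.

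The genes with RNAPII at 2 h and 4 h but not 0 min were led by Kremen1. Its RNAPII fold in the Myc region was 10.74 at 10 min, 18.71 at 20 min, 19.84 at 30 min, 12.39 at 2 h and 18.98 at 4 h. For Nrtn, RNAPII peaks stood in the 20 min (9.19), 2 h (12.82) and 4 h (17.42) lists and in no other. Prkaa2, a catalytic subunit of AMP-activated kinase, had it from 20 min on, at 12.16, 10.96, 7.45 and 14.16. At the deubiquitinase gene Usp2 it was present at 20 min (10.1), 2 h (7.99) and 4 h (13.29). Slco4a1, an organic anion transporter, had 12.71, 7.59, 9.0, 9.67 and 11.91 from 10 min on. The remaining 3 named by the same rule, Phldb3, 1600021P15Rik and Tbc1d2b, had 4 h folds of 12.1, 10.65 and 10.65. All 8 had a peak in the 20 min list. In Usp2 another promoter of the gene had Myc at 0 min. These folds are from the narrow lists, and in the broad lists only Kremen1, Nrtn and Slco4a1 kept the pattern. Prkaa2 and Usp2 had a broad peak at 4 h (11.49 and 10.48) but none at 2 h. Phldb3, 1600021P15Rik and Tbc1d2b had no broad peak at either late time.

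Among the 12 genes highest by Myc, some had RNAPII at every time and some at none. P2ry2, first by Myc, had an RNAPII peak in the 20 min list alone, at 7.01. Lingo1, Kifc3 and Tmem189 had none in the Myc region at any time, although Kifc3 and Tmem189 each had another promoter with Myc at 0 min. Hsd3b7 had RNAPII at 18.71, 15.27, 21.45, 24.78, 16.42 and 17.08 from 0 min to 4 h. Rassf5 (18.85 at 0 min, 22.46 at 4 h), Il13ra1 (10.09 and 15.16), Gmip (18.63 and 14.58) and Mtss1l (16.94 and 8.61) also had a peak at all 6 times. Heca had narrow RNAPII peaks at 10 min (8.94), 20 min (10.85), 2 h (7.57) and 4 h (10.16), and a broad one at 20 min alone. Over the 461 regions, the median 4 h Myc fold was 8.57 where RNAPII was present at all 6 times, 9.06 where it was present at none, and 8.76 at the rest.

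**Figure D3:**
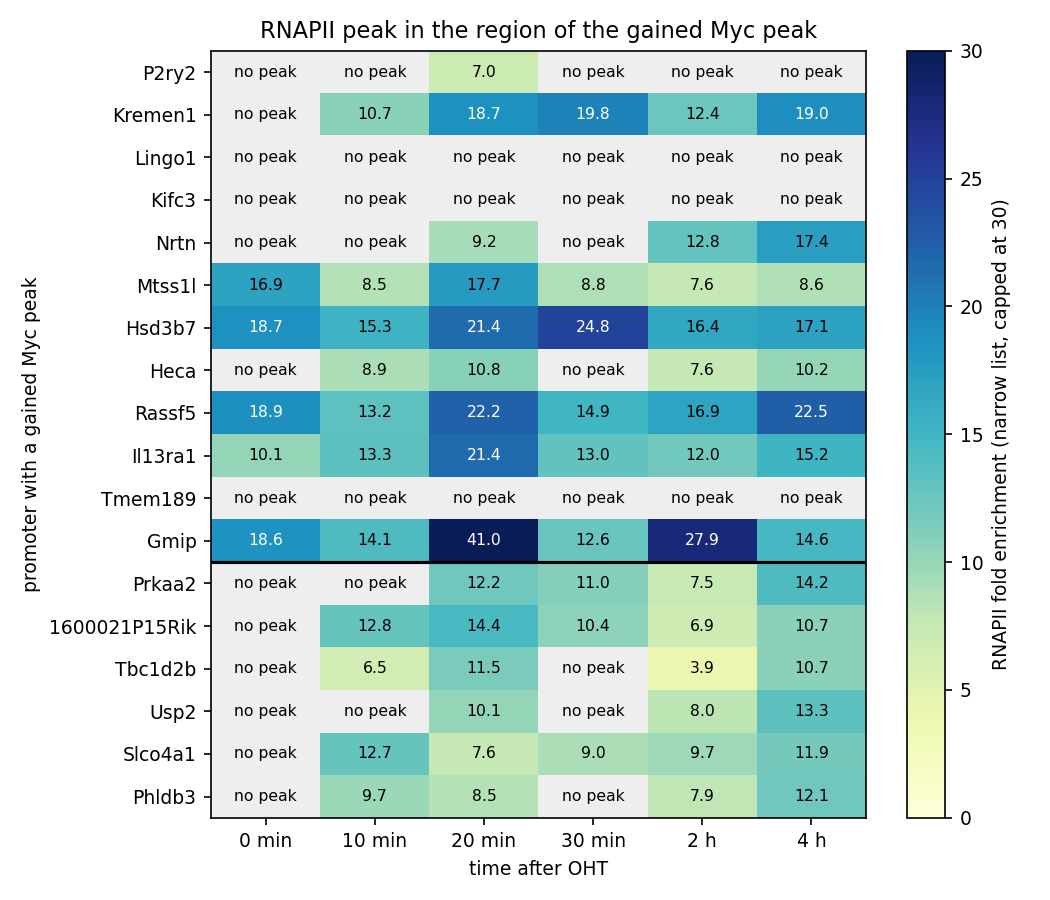
RNAPII fold enrichment (colour and number, narrow lists) in the Myc region of 18 named gained promoters (rows) at 6 times after OHT (columns); grey cells have no peak. The upper 12 rows, ordered by 4 h Myc fold, include 3 with no RNAPII peak at any time. The lower 6, like Kremen1, Nrtn and Heca above the line, have RNAPII at both late times but not before OHT.

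Promoters with and without RNAPII also differed in sequence, in position and in Miz1. The 210 with RNAPII at all 6 times had a median GC content of 62.5% in the 200 bp around the summit, and 71.9% were CpG-rich (CpG observed over expected above 0.6 and GC above 50%). The 125 with none had a median GC of 53.5%, and 21.6% were CpG-rich. The Myc summit lay a median of 150 bp from the nearest TSS in the first group and 539 bp in the second. TGANTCA was found in 9 of the 210 (4.29%) and in 39 of the 125 (31.2%). CACGTG was found in 14 (6.67%) and 17 (13.6%), and a fibroblast Miz1 peak in 21 (10.0%) and 3 (2.40%). The remaining regions, with RNAPII at some times, lay between on GC (60.5%), CpG-rich share (52.4%), distance (276 bp) and TGANTCA (11.9%). Gained Myc regions away from promoters, for comparison, held TGANTCA in 40.7%, and 2.85% of them were CpG-rich.

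Over all 461 gained promoters, CACGTG was less frequent than at promoters with constant Myc. It was present in 40 windows (8.68%, 6.44 to 11.6), in 1.63% of windows 1000 bp to either side, and in 18.1% at promoters with Myc at all 6 times. At the 1345 promoters with a like 4 h fold it was 7.58%, which lies within the interval of gained promoters. The same width around all 45974 protein-coding TSS positions held it in 5.19%. In 31 of the 40 the E-box lay within 50 bp of the summit, at a median of 19.5 bp. The other E-box forms were found in 14.1% (CACGCG), 18.9% (CATGTG) and 6.07% (CATGCG) of gained promoters, against 21.3%, 12.6% and 9.17% at promoters with constant Myc and 9.16%, 6.80% and 5.18% around all TSS positions. Any of the 4 forms was present in 40.8% of gained promoters, 34.8% of those with a like fold and 23.3% of TSS windows. The 4 forms share letters, so 1 stretch could hold several in overlap, and each was counted for itself.

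TGANTCA, by contrast, was more frequent than at constant Myc promoters as a whole, and the gap to the groups nearest in Myc signal was smaller. It was found in 63 gained promoters (13.7%, 10.8 to 17.1), in 5.86% of their flanks, in 6.78% of promoters with Myc at all 6 times, in 9.59% of those with a like fold and in 3.98% of TSS windows. Among the 240 promoters with a 0 min Myc score under 100, TGANTCA was found in 10.8% (7.50 to 15.4). That interval overlaps that of gained promoters. The interval at a like fold (8.13 to 11.3) overlaps it too, but the 9.59% itself lies below the interval of gained promoters. Overlap of intervals does not show that shares are alike, and these differences were not tested. GGGCGG, the GC box, was found in 29.3%, against 40.4% at constant Myc promoters, 39.3% at a like fold and 38.6% around TSSs. The ETS-type motif CCGGAAG was found in 6.29%, against 12%, 8.25% and 8.59%. Base composition differed as well. Gained promoters had a median GC of 59.0% and 244 (52.9%) were CpG-rich, against 63.5% and 71.6% at constant Myc promoters and 62.0% and 59.6% at a like fold.

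**Figure D4:**
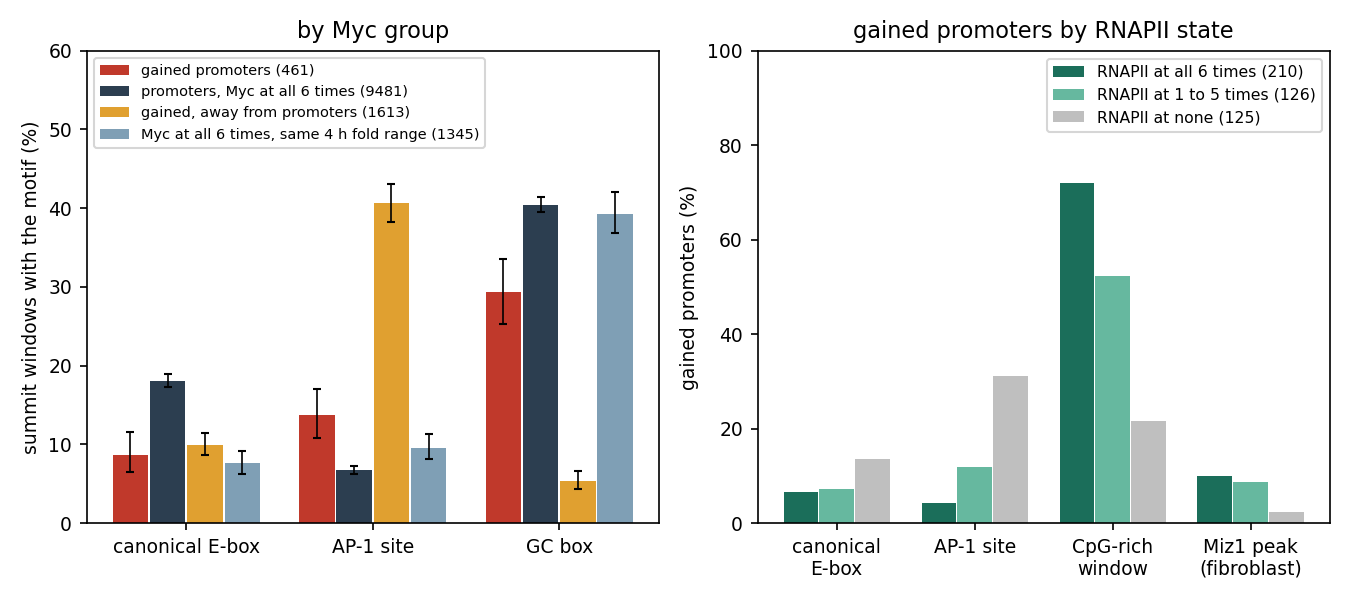
Left, share of regions (percent, with 95% Wilson intervals) that hold the E-box CACGTG, the AP-1 motif TGANTCA or the GC box GGGCGG in the 200 bp around the 4 h Myc summit, for gained promoters and the groups they are compared with; right, share of gained promoters with the first and second of these motifs, a CpG-rich window or a fibroblast Miz1 peak, by the number of times with RNAPII. CACGTG is at 8.68% in gained promoters and 18.1% at promoters with Myc at all 6 times, and TGANTCA at 13.7% and 6.78%; on the right it is at 4.29% with RNAPII at all 6 times and 31.2% with none.

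Split by composition, the RNAPII difference was present in both classes. Among CpG-rich windows, RNAPII at 0 min was found at 74.6% of gained promoters (68.8 to 79.6), 97.0% of constant Myc promoters and 94.0% of those with a like fold. Among the others it was 41.0% (34.7 to 47.7), 79.8% and 69.2%. TGANTCA was found in 3.69%, 2.72% and 2.99% of CpG-rich windows in the same order, and in 24.9%, 17.0% and 19.3% of the others. CACGTG in gained promoters was 8.61% in CpG-rich windows and 8.76% in the others.

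Gained summits lay somewhat farther from the TSS. The median distance was 233 bp (quartiles 72.0 and 597) against 138 bp at constant Myc promoters, and 30.4% lay within 100 bp against 41.8%. The summit was downstream of the nearest TSS in 57.7%, and within 1000 bp of it in 395 regions. It fell in an intron in 209 regions (45.3%), in intergenic sequence in 96 (20.8%), in a 5′ UTR in 81 (17.6%) and in a coding exon in 53 (11.5%). At constant Myc promoters 30.5% of summits were intronic and 26.1% in a 5′ UTR.

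RNAPII coverage of gene bodies was low for genes of gained promoters and the same at 0 min and 4 h. Coverage was computed for genes of at least 3000 bp, as the percentage under narrow RNAPII peaks once the 1000 bp after the TSS were left out. Over 434 genes its mean was 8.58% at 0 min, 11.6% at 10 min, 13.8% at 20 min, 9.56% at 30 min, 10.6% at 2 h and 8.58% at 4 h. All 18156 protein-coding genes of that length had means of 12.3%, 15.9%, 18.8%, 13.9%, 14.6% and 12.9%, with the same high point in the deepest library. Genes whose promoters had Myc at all 6 times had 21.7% at 0 min and 23.1% at 4 h. The 341 gained genes with no other Myc promoter had 7.58% and 7.51%, and the 93 with another one 12.2% and 12.5%.

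Few of these genes had body coverage that differed by more than 20 percentage points from 0 min. At 30 min 16 of 434 were higher (3.69%, against 5.28% of all genes) and 6 lower (1.38%, against 2.35%). At 4 h 8 were higher (1.84%, against 4.22%) and 9 lower (2.07%, against 2.78%). These counts are small and no interval is given for them, so nothing is read from their differences from all genes. With the same number of peaks from each Myc list, 11 of 185 genes (5.95%) were higher at 30 min, and the same holds for that share.

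Larger differences were seen at the genes named for them. Ubqln2, a ubiquitin-binding shuttle factor, had coverage of 16.6%, 18.9%, 67.9%, 20.8%, 100% and 92.5% from 0 min to 4 h. Usp10, a deubiquitinase, had 7.77%, 69.2%, 17.8%, 78.2%, 90.0% and 61.0%. In Usp10 another promoter of the gene had Myc at 0 min, and the gained region was not at its first TSS. Csnk2a2, a catalytic subunit of casein kinase 2, had 18.6%, 62.0%, 77.9%, 58.0%, 73.8% and 47.2%. For this gene every later list was above 0 min. Dnaja4, an Hsp40 co-chaperone, had 20.3%, 46.9%, 62.8%, 59.7%, 47.2% and 61.7%, likewise all above. Eif4enif1, which carries eIF4E into the nucleus, had 36.2%, 57.0%, 0%, 58.7%, 79.3% and 74.7%. The Myc summit of Eif4enif1 lay in an intron of another gene, Drg1, and the Myc region had no RNAPII peak at any time. Its 4 h Myc peak held 572 tags at a fold of 8.74, where that of Ubqln2 held 135 at 8.64. Znhit3 had 74.4% at 0 min and 100% at 4 h, Kif22 12% and 26.7%, and BC005561 2.29% and 19.6%. In the other direction Atxn1l had 69.3%, 59.1%, 77.8%, 57.1%, 42.9% and 8.76%. At 0 min, 20 min and 4 h in turn, coverage was 73.4%, 100% and 43.4% for Mtss1l, 70.0%, 100% and 22.5% for Zfp358, and 97.0%, 0% and 50.3% for Qrfp. Qrfp had a promoter RNAPII peak only at 20 min (4.26), so the RNAPII over its body cannot be assigned to that gene. Its Myc summit lay 977 bp from the TSS. The times scatter within most of these genes, with no second library to set the spread. Ubqln2 (3306 bp), Zfp358 (4071 bp), Qrfp (4415 bp) and Znhit3 (5417 bp) are short genes. A small change in the width of a peak moves their coverage by many points. In the broad RNAPII lists these differences were mostly far smaller or not seen. There Ubqln2, BC005561 and Zfp358 had 0% at all 6 times, and from 0 min to 4 h Usp10 stood at 0.234% and 0%, Csnk2a2 at 1.16% and 3.48%, Dnaja4 at 0.724% and 2.35%, Eif4enif1 at 6.84% and 8.94%, and Atxn1l at 3.96% and 0%. Larger differences in the broad lists were those of Znhit3, with 0% and 33.4%, and Qrfp, with 27.6% and 0%.

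**Figure D5:**
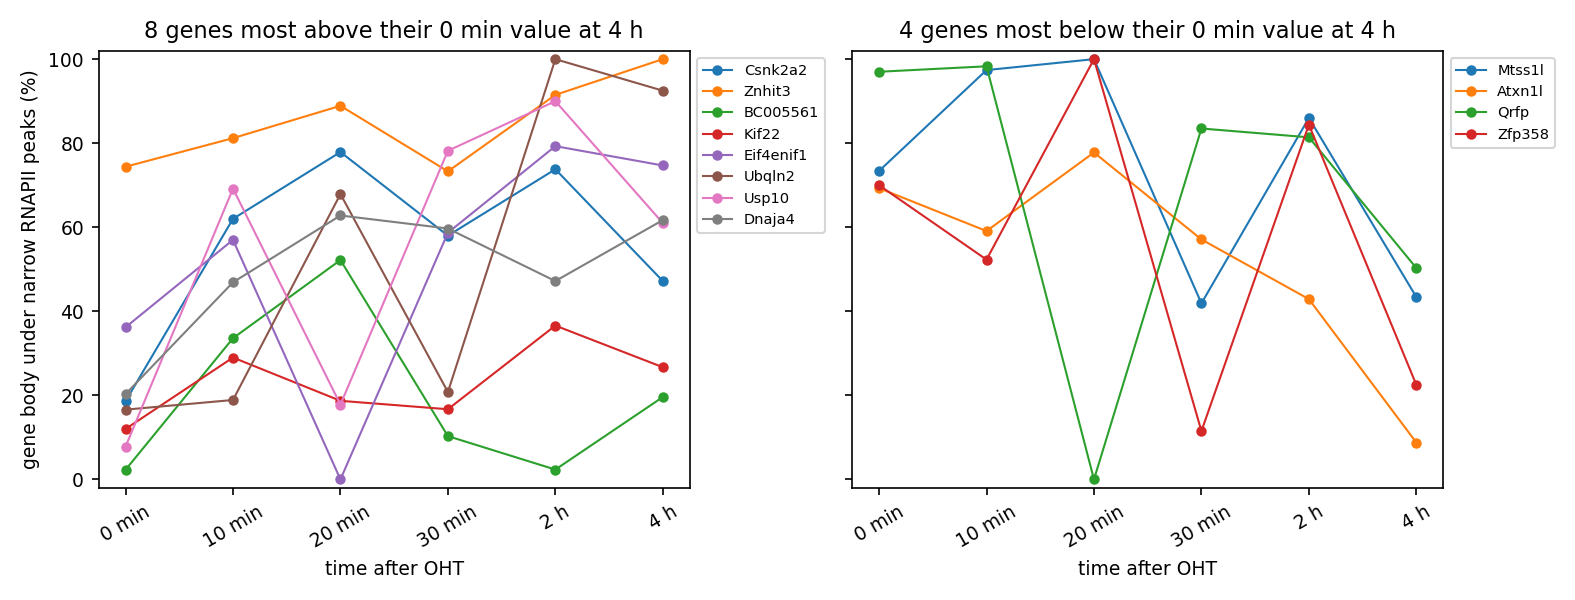
Percentage of the gene body under narrow RNAPII peaks (vertical axis) at each time after OHT (horizontal axis) for the 8 genes of gained promoters furthest above (left) and the 4 furthest below (right) their 0 min value at 4 h, 1 line per gene. Ubqln2 goes from 16.6% at 0 min to 92.5% at 4 h and Atxn1l from 69.3% to 8.76%, and Eif4enif1 and Qrfp stand at 0% at 20 min alone.

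The zeros at 20 min for Eif4enif1 and Qrfp sit in a narrow list that lacks peaks at some loci covered at every other time. Of all 18156 genes, 47 had at least 20% coverage at the other 5 times and none at 20 min, and all 47 had coverage in the broad 20 min list. No gained promoter was missing from the 20 min narrow list alone.

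Miz1 was at a minority of gained promoters. A fibroblast Miz1 peak overlapped 35 of 461 (7.59%, 5.51 to 10.4), against 18.9% of promoters with constant Myc, 13.6% (11.9 to 15.5) of those with a like fold and 7.75% of gained regions away from promoters. Among the 240 promoters with a 0 min Myc score under 100, the share was 10.0% (6.81 to 14.4), an interval that overlaps that of gained promoters. In B cells 27 gained promoters (5.86%) had a Miz1 peak, and 13 (2.82%) had one in both cell types. The fibroblast list was called at a weaker cutoff than the B cell list, and at the B cell cutoff the fibroblast share was 5.64%. In the 188 promoters that remained when each Myc list was held to the same number of peaks, the share was 12.8% (24 regions), close to that at a like 4 h fold.

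The Miz1 peaks that were present included very strong ones, close to the Myc summit. Znhit3 had a Miz1 fold of 242.07 in fibroblasts and 86.39 in B cells, 162 bp from the Myc summit. Fan1, a nuclease of DNA crosslink repair, had 195.15 and 58.84 at 118 bp. The promoter shared by the glycosyltransferase gene Pomgnt1 and the recombination gene Rad54l had 192.17 and 81.85 at 69 bp. Lactb had 76.2 and 82.97 at 139 bp, and Clcc1 40.26 and 140.74 at 70 bp. All of these promoters had an RNAPII peak at all 6 times. Their 4 h Myc folds, 11.15 at Znhit3, 9.53 at Fan1, 8.92 at the shared promoter, 6.31 at Lactb and 11.4 at Clcc1, were under the 12.4 median of the 4 h list.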

How the data were processed

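ChIP-seq of Myc, RNAPII and Miz1 was deposited as MACS peak lists on mouse build mm9, 20 lists from 14 of the 15 samples, with input as control. Per the file headers, the Myc and narrow RNAPII lists were called with MACS 1.4.2, and the broad RNAPII and the Miz1 lists with MACS 2.0.9. BWA 0.6.2-r126 and MACS2 2.0.9 are named in the submitters' processing notes. The authors' columns are tag counts per peak, fold enrichment (a ratio to input), a significance score of −10 log10 p, the false discovery rate as a percent, and in the MACS2 lists pileup signal with −log10 p and q values. All values come from 1 library each and have no replicate.

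Peaks were merged, overlapped (at least 1 bp) and annotated with GENCODE vM1 in Python 3.11.15 with numpy 2.4.6, scipy 1.17.1 and pysam 0.24.0. Merging, the gain rule, coverage and motif search were tested on simulated peaks and sequences, and the other steps were not. Shares carry 95% Wilson intervals, which cover counting error only. Myc libraries had 28132063 to 33431447 tags and RNAPII libraries 15276996 to 36396286. The 15 families come from the start of the gene symbol and the 6 marker lists were written by hand; 1 family and 1 sequence are not reported here, and members and lists were chosen with earlier results of these data known. Named protein-coding genes, all with an own TSS at most 1000 bp from the 4 h summit, were the 12 highest by Myc fold, up to 8 with RNAPII at 2 h and 4 h but not 0 min, the 8 highest and 4 lowest by coverage difference between 4 h and 0 min, 6 by Miz1 fold, up to 3 per family, and marker genes. Alternatives varied the peak threshold, merging, promoter width, TSS set, left-out lists, RNAPII lists, motif window and matched Myc fold.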

Additional observations from a re-analysis of the deposited data

How the results depend on the processing

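Taking the same number of peaks from each Myc list left 188 of the 461 promoters, all of them among the 461, with RNAPII at 71.3% at 0 min and 72.3% at 4 h, Miz1 at 12.8% and 5.95% of genes higher by over 20 points at 30 min. Keeping peaks above the median fold of their list gave 678 promoters, of which 20 were among the 461. Leaving out 1 later list gave 469 to 549. With the broad RNAPII lists the share was 46.2% at 0 min and 44.0% at 4 h, mean body coverage was 1.85%, 1.91% and 1.96% at 0 min, 30 min and 4 h, and the shares of genes past 20 points were 0.461% higher and 0.230% lower at 30 min and 0.461% either way at 4 h. With the summit within 1000 bp of a TSS, RNAPII was at 64.1% and 65.1%. Restricting constant Myc promoters to a like 4 h fold gave RNAPII at 84.0% and 81.3%, CACGTG at 7.58% and Miz1 at 13.6%. CACGTG was at 6.29% in 100 bp and 12.1% in 400 bp, as narrower and wider windows give by construction; for the others the cause was not tested. In all, 41 alternative values stayed within 1.5 times the main value or within the interval of the main share, and 22 did not. Among the 41 were the 678 promoters and those from left-out lists. For mean body coverage the interval treated the mean as a share of genes, so it does not measure the spread of coverage. Alternatives without the 20 min RNAPII list, with RNAPII over the summit, and with genes lacking another Myc promoter were chosen after seeing the data. No paired analysis was possible because each group is 1 library. Each time has 1 library of unlike depth, and a region without a peak has no value.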

Other observations

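Of the 461 gained promoters, 36 held no protein-coding TSS. They comprised 11 regions at processed transcripts, 7 at pseudogenes, 7 at lincRNAs, 4 at snoRNAs, 4 at miRNAs, 2 at other small RNAs and 1 at an snRNA. The highest by 4 h Myc fold were the processed transcript Gm12992 at 21.09 and the pseudogenes Gm13474 at 17.54 and Gm12094 at 14.58, none of which had an RNAPII peak at any time. 1700064E03Rik, at 13.24, had RNAPII at all 6 times, as did a vault RNA copy at 7.77, a U1 snRNA copy at 5.02 and Snord17 at 7.87. The E-box in the 1700064E03Rik region lies in a coding exon of Kdm6b, so RNAPII there cannot be assigned to 1 of the 2 genes. Copies of small RNA genes are near identical, so their peaks are uncertain.

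Among the promoters shared by 2 genes were Col4a1 and Col4a2 (4 h Myc fold 6.01), Col4a5 and Col4a6 (10.31), and Pomgnt1 and Rad54l (8.92). RNAPII was present at the first of these at 20 min (10.69), 30 min (7.08) and 4 h (10.48), and at the next at 0 min (8.98), 20 min (5.9) and 4 h (8.75). Pomgnt1 and Rad54l had it at every time, between 8.06 and 19.88.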
